A study of Mus musculus with 8 samples.

Results

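The genes described here encode transcription factors that give cells their position in the embryo: the Hox genes of the 4 clusters, the paired-box (Pax) genes, the T-box (Tbx) genes, the sine oculis homeobox genes (such as Six2) and the Alx, Lhx, Prrx, Meis and Pbx homeobox genes. Members were taken from the deposited table by symbol alone, as these family names followed by a number. That gave 87 genes in 9 families among the 47706 entries listed, each with 1 entry. RNA was sequenced from primary mouse calvarial osteoblasts, the bone-forming cells released by collagenase from the skullcap of newborn pups, in 4 PTH samples and 4 vehicle samples. PTH is parathyroid hormone, a bone-building hormone when given intermittently, and the vehicle was saline buffer. Both groups were differentiated for 7 days, serum-starved briefly and then exposed for 24 hours. No strain, genotype or age of individual pups was given in the labels for either group, and no label ties a sample to its own preparation of cells. A p-value therefore measures the spread between these samples, which may be technical.

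Homeobox, paired-box and T-box proteins bind DNA through the domains that name them and act in combination, so that the set a cell keeps on records where in the body it arose. Hox genes lie in clusters whose order along the chromosome mirrors their order of use from head to tail, and low paralog numbers mark anterior and high numbers posterior or distal positions. The frontal bone of the skull comes largely from cranial neural crest that develops without Hox expression, and the parietal bone from mesoderm. Prrx, Alx and sine oculis genes and Tbx15 are known for roles in skull, face and limb mesenchyme. Meis and Pbx proteins are DNA-binding partners of Hox and other homeodomain proteins. PTH acts through a receptor that raises cyclic AMP, and the factor CREB binds the palindrome TGACGTCA, the cyclic AMP response element, or its shorter core TGACG.

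The labels name adipogenic differentiation, whereas the design text and the methods of the study describe osteoblast cultures in osteogenic medium. Osteoblast markers had a median between 214 and 377 CPM (counts scaled to library size by edgeR's TMM method) over the 8 samples, and adipocyte markers between 4.51 and 7.08 CPM. Total counts lay between 33605610 and 56090654 per sample. A floor of 3 counts, the upper limit that a count of 0 allows, corresponded to between 0.0585 and 0.0903 CPM, and such limits cover counting error only. The quasi-likelihood test of edgeR was run on the 16736 genes that passed the filter on low counts, and a gene was called where its p, adjusted over all of these by Benjamini and Hochberg, was under 0.05. Changes are given as log2FC, the log2 fold change of PTH over vehicle from that fit. In bulk RNA, fewer cells of a type and less RNA per cell cannot be told apart.

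Of the 87 genes, 19 were silent, with at most 3 counts in each of the 8 samples, and 13 of those had 0 counts in all samples. A further 23 were at trace level, with more than 3 counts in some sample but too few for the filter. The filter was passed by 45 genes, of which 11 were low, with a mean under 1 CPM, and 34 were expressed at a mean of 1 CPM or more. The silent share was 21.8% of the members and the expressed share 39.1%. Among protein-coding symbols of the GENCODE M21 annotation, measured in the same way, 23.4% were silent and 58.8% were expressed. All members of Prrx and Meis were expressed, as were 4 of 6 sine oculis, 4 of 9 Pax and 4 of 13 Tbx genes. Of the Hox genes 11 of 39 were expressed, and of the Lhx genes 1 of 8. Differences between families were not tested.

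**Figure D1:**
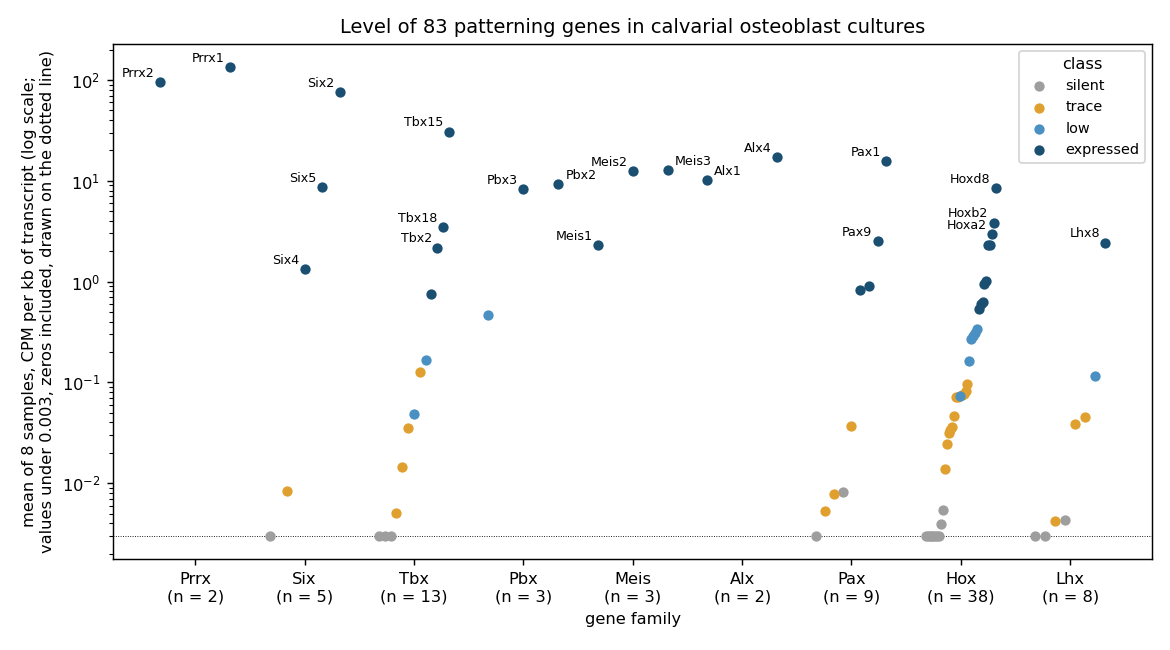
Mean level of 83 of the 87 genes over the 8 samples, in CPM per kb of the longest protein-coding transcript on a log axis, by family and in order of level within a family. Each point is a gene, coloured by class, and the Prrx, Six2 and Tbx15 points lie above 30 CPM per kb while the silent genes lie near or on the dotted line at the bottom.

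To compare genes with one another, the mean CPM over the 8 samples of both treatments was divided by the length of the longest protein-coding transcript. On that scale Prrx1, a mesenchymal homeobox gene that also marks progenitors of the skull sutures, had the highest level of all members at 133 CPM per kb. Its paralog Prrx2 followed with 94.5 CPM per kb, and these 2 genes held 44.8% of the summed level of all 87. Six2, which maintains progenitors in several embryonic tissues, had 75.9 CPM per kb. Tbx15, a T-box gene of skull and limb mesenchyme, had 30.8 CPM per kb. Alx4, mutated in human defects of parietal bone closure, had 17.1 CPM per kb, and Alx1, a gene of the frontonasal region, had 10.1. Meis3 had 12.8 and Meis2 12.5 CPM per kb. Pax1 had 5.29 CPM per kb with vehicle and 25.8 with PTH, so its place among these genes differed between treatments. The Hox gene with the highest level was Hoxd8 at 8.45 CPM per kb, in place 14 of the 87. All 39 Hox genes together held 5.20% of the summed level.

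The 19 silent genes included factors known from other organs. Among the Pax genes these were Pax4, a pancreatic islet factor with 0 counts, and Pax8, a thyroid and kidney factor with at most 3 counts. Six6, of the eye and pituitary, and Lhx1, of kidney and brain, had 0 counts in all samples. The same held for Tbx10, Tbx19, a pituitary factor, and Tbx22, a palate factor. Lhx3 and Lhx5, of the pituitary and nervous system, had at most 2 counts. The silent Hox genes were Hoxa6, Hoxa9, Hoxb1, Hoxb13, Hoxc9, Hoxc10, Hoxc11, Hoxc12, Hoxd11 and Hoxd12. Of these, Hoxb1 had at most 3 counts, Hoxa9 and Hoxd12 had at most 2, and the other 7 had 0 in all samples. At this depth a level under the floor was not detectable, which does not show that the gene is off in every cell.

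Genes at trace level are given by the member of each family with the highest mean count. Tbx6, a factor of the presomitic mesoderm, had 0, 4, 4 and 8 counts with vehicle and 5, 19, 28 and 1 with PTH. Pax6, of eye and forebrain, had 7, 4, 4 and 0 counts with vehicle and 5, 7, 20 and 6 with PTH. Six3, an anterior brain factor, had 0 counts in each vehicle sample and at most 6 with PTH. These values overlapped between the groups. Hoxa10, a limb and uterus factor, had 9, 27, 8 and 9 counts with vehicle and 12, 4, 0 and 0 with PTH. Lhx9, of gonad and limb, had 10, 22, 8 and 10 counts with vehicle and 2, 0, 8 and 7 with PTH. Vehicle replicate 2 was the highest of the 8 samples for both Hoxa10 and Lhx9. The other genes at trace level were Pax2, Pax5, Lhx4, Lhx6, Tbx1, Tbx20, Tbx21, Hoxa7, Hoxa11, Hoxa13, Hoxb5, Hoxb6, Hoxb7, Hoxb8, Hoxc4, Hoxc8, Hoxd1 and Hoxd10, with a highest count between 4 and 21. The low genes, which passed the filter under 1 CPM, included Lhx2, Tbx4, Tbx5, Pbx4, Hoxa4, Hoxb9, Hoxc5, Hoxc6, Hoxc13 and Hoxd13, and 1 of these, Hoxc13, was called in the comparison of treatments.

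Across the Hox clusters, expression was concentrated in low paralog numbers. Of the 12 Hox genes with paralog numbers 1 to 4, 8 were expressed and 1 was silent. For numbers 5 to 8, 2 of 11 were expressed and 6 were at trace level. For numbers 9 to 13, 1 of 16 was expressed and 8 were silent. The summed levels of these bands were 13.4, 9.71 and 3.27 CPM per kb. By cluster, there were 4 expressed genes in HoxA, 3 in HoxB, 4 in HoxD and none of 9 in HoxC, where the 3 genes that passed the filter had means under 1 CPM over the 8 samples. These classes pool both treatments. Hoxc13, classed as low, had a mean of 1.16 CPM with vehicle and 0.267 with PTH. Hoxa5, classed as expressed, had 0.402 CPM with vehicle and 1.60 with PTH. HoxD had the highest summed level, 12.6 CPM per kb, against 7.64 for HoxB, 5.31 for HoxA and 0.881 for HoxC. Hoxd8 and its neighbour Hoxd9 supplied most of the HoxD level, with 8.45 and 2.32 CPM per kb. Within HoxD the level did not fall steadily with paralog number. Hoxd1, at the low end, was at trace level, and Hoxd3 and Hoxd4 were under Hoxd8 and Hoxd9. Beyond them Hoxd10 was at trace level, Hoxd11 and Hoxd12 were silent and Hoxd13 was low.

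**Figure D2:**
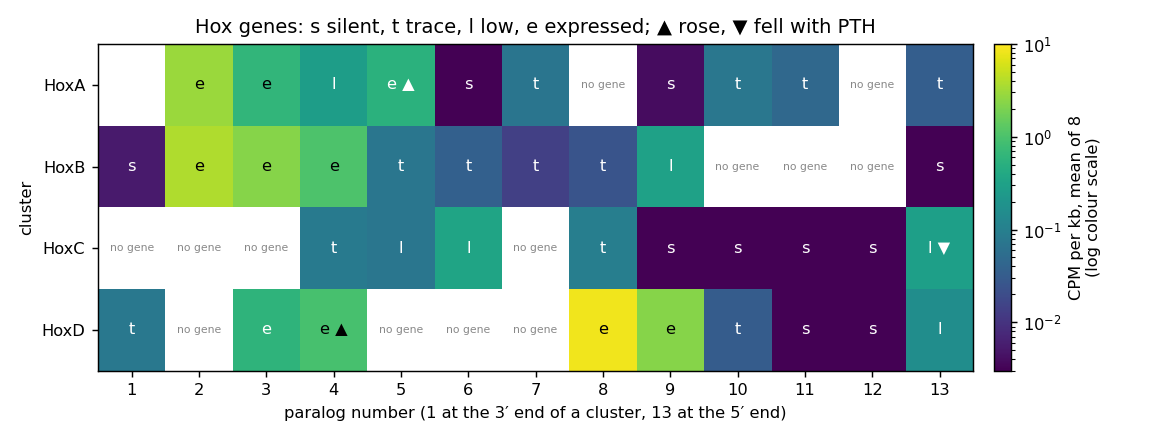
Level of the Hox genes by cluster (rows) and paralog number (columns), as the mean CPM per kb of 8 samples on a log colour scale; letters give the class and triangles the genes that rose or fell with PTH, and a blank cell is not reported here. Expressed genes sit mainly at numbers 1 to 4 of HoxA, HoxB and HoxD, with Hoxd8 and Hoxd9 apart from them, and HoxC has no expressed gene.

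In the anterior HoxB genes, Hoxb2, a hindbrain and arch factor, had the highest level at 3.85 CPM per kb, followed by Hoxb3 at 2.31 and Hoxb4 at 1.02. In HoxA, Hoxa2, the factor that sets the identity of the second pharyngeal arch, had 2.96 CPM per kb, and Hoxa3 had 0.622. Hoxd4 had 0.937 and Hoxd3 0.594 CPM per kb. Several of these values are uncertain because exons are shared: 62.8% of the exon bases of Hoxd3, 52.9% of those of Hoxb3, 52.3% of those of Hoxd4, 27.3% of those of Hoxb2 and 27.1% of those of Hoxa3 also belong to another annotated gene. For Hoxb2 and Hoxb3 the other gene is the antisense transcript Hoxb3os, and the strand setting of the counting was not stated. For 5 tested antisense and long non-coding RNAs of the clusters (Hotairm1, Hoxaas2, Hoxb3os, Hoxd3os1 and Haglr) the log2FC of PTH over vehicle lay between -0.05 and 0.44 and the adjusted p between 0.203 and 0.896. Hotair and Hottip, which lie in the posterior parts of HoxC and HoxA, had 0 counts in all samples.

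To examine the response to PTH, the 4 PTH samples were compared with the 4 vehicle samples. Of the 45 members tested, 11 rose, against 23.3% of all 16736 genes, and 7 fell, against 22.5% of all genes. Together 18 members (40.0%) were called, and 45.8% of all genes were called, so the share was near that of the genome. The median log2FC was 0.19 over the tested members and -0.0008 over all genes. When a log2FC of 1 or more was also required, 4 members rose (Six2, Pax1, Tbx3 and Hoxa5), against 7.36% of all genes, and 3 fell (Six5, Tbx2 and Hoxc13), against 3.88%. In 18 tested members the groups did not overlap, 11 with all PTH samples above and 7 with all below, and this held for 43.0% of all genes. An exact two-sided permutation test of 4 against 4 cannot go below p = 0.0286, and the members without overlap are at that value. Outside the Hox clusters 15 of 28 tested members were called, and in the clusters 3 of 17. Of those same tested genes, 23 of 28 and 11 of 17 had a mean of at least 1 CPM, and the difference in calls was not tested.

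**Figure D3:**
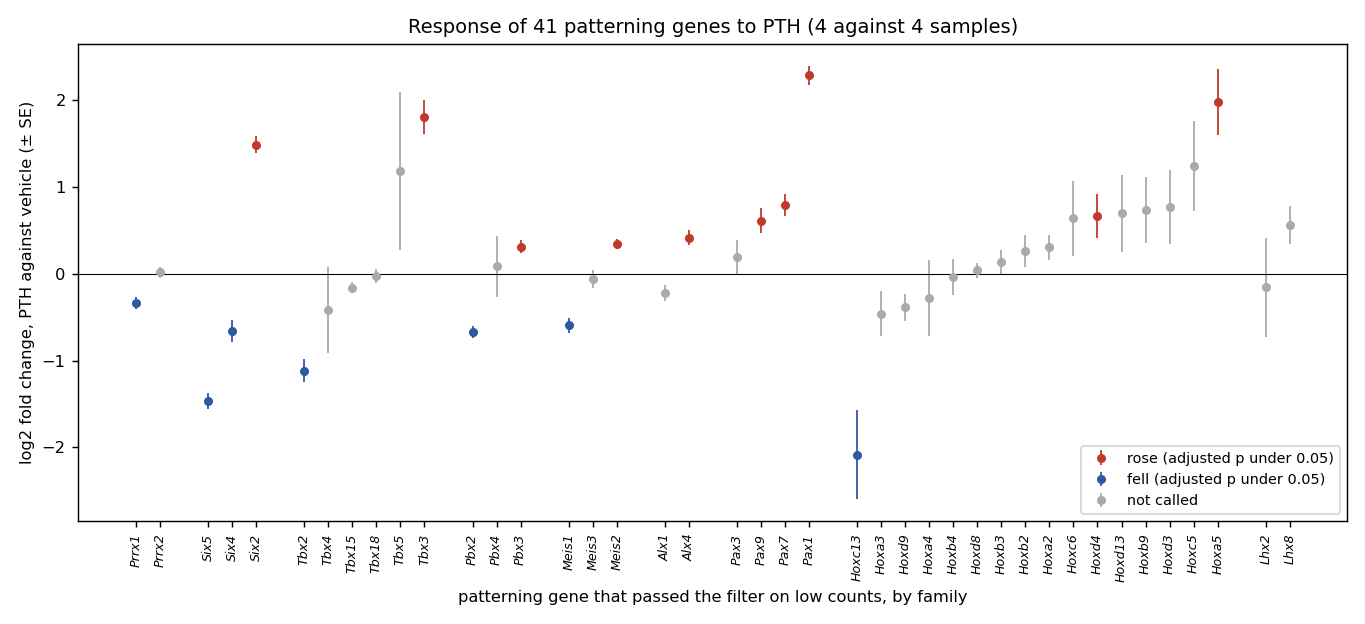
Log2FC of PTH against vehicle for 41 of the 45 members that passed the filter, with the standard error of the fit as bars, grouped by family and ordered by change within a family. Red points rose and blue points fell at an adjusted p under 0.05; Pax1 has the highest value, 2.29, and Hoxc13 the lowest, -2.08.

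Signs of other cell types moved with treatment in part. The summed level of 10 macrophage markers ranged from 1063 to 1729 CPM with vehicle and from 1658 to 2125 with PTH, and 1 of the 10 rose. The summed level of 8 endothelial markers ranged from 22.5 to 24.4 CPM with vehicle and from 30.02 to 50.04 with PTH, and that of 10 neural markers from 43.5 to 50.4 and from 61.5 to 66.9. Of the 6 endothelial markers tested 2 rose and 1 fell, and of the 8 neural markers tested 1 rose. The sums therefore do not show a shift shared by all markers of a list. Emcn, an endothelial marker, had 0 counts in all samples, and 6 of 10 lymphocyte markers were at or under the floor. Of the 14 osteoblast markers, 4 fell. Over all tested genes 23.3% rose and 22.5% fell, so these counts of markers are a description only. The part of these cell types in the changes below was not tested.

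The sine oculis genes moved in both directions under PTH, with 1 that rose and 2 that fell. Over all tested genes 23.3% rose and 22.5% fell. Six2 on chromosome 17 (85684277 to 85688274, minus strand) measured 85.0, 92.1, 84.1 and 76.6 CPM with vehicle and 283, 205, 218 and 242 CPM with PTH. Every PTH sample was more than 100 CPM above every vehicle sample. The mean rose from 84.5 ± 6.33 to 237 ± 34.4 CPM (SD, n = 4), a log2FC of 1.49 (SE 0.101, adjusted p = 1.81e-07, edgeR), and its level per length moved from 39.9 to 112 CPM per kb, while that of Prrx2 was 93.9 and 95.1. Six5 on chromosome 7 (19094594 to 19098549, plus strand), which lies beside the myotonic dystrophy gene, measured 40.3, 36.7, 38.5 and 36.5 CPM with vehicle and 12.7, 16.1, 12.7 and 13.5 with PTH. Its log2FC was -1.47 (SE 0.0894, adjusted p = 7.43e-08, edgeR), with no overlap between the groups. Six4 fell from 11.1 ± 1.25 to 7.01 ± 0.890 CPM (log2FC -0.66, adjusted p = 9.91e-04).

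The Pax genes that were expressed were those of somite and neural crest derivatives, and 3 of the 4 rose, against 23.3% of all tested genes. With 4 genes this is a description, and the families were not compared by a test. Pax1, a sclerotome and thymus factor on chromosome 2 (147361925 to 147393295, plus strand), measured 15.1, 15.04, 14.4 and 11.5 CPM with vehicle and 79.3, 64.4, 69.3 and 60.0 CPM with PTH. This was the highest fold change of the 45 members tested, with a log2FC of 2.29 (SE 0.111, adjusted p = 9.35e-09, edgeR) and means of 13.99 ± 1.72 and 68.3 ± 8.29 CPM. Its paralog Pax9, a factor of tooth, palate and sclerotome, rose from 8.38 ± 1.44 to 12.8 ± 1.60 CPM (log2FC 0.61, adjusted p = 0.00368). Chondrocyte markers summed to between 823 and 1076 CPM with vehicle and between 877 and 1137 with PTH, and 2 of 10 rose. Pax7, known from muscle satellite cells and dorsal neural crest, rose from 3.91 ± 0.281 to 6.79 ± 0.523 CPM (log2FC 0.79, adjusted p = 3.07e-04). Its close relative Pax3 was not called, at 2.99 ± 0.518 CPM with vehicle and 3.41 ± 0.587 with PTH (log2FC 0.19, adjusted p = 0.451). Of the skeletal muscle markers, Myf5 had 0 counts in all samples, and the 10 summed to between 37.3 and 47.4 CPM with vehicle and between 34.2 and 47.5 with PTH.

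Among T-box genes, the closely related repressors Tbx3 and Tbx2 moved in opposite directions. Tbx3 on chromosome 5 (119670669 to 119684724, plus strand) measured 1.29, 2.27, 1.63 and 1.51 CPM with vehicle and 5.33, 5.42, 6.13 and 6.63 with PTH. The log2FC was 1.81 (SE 0.195, adjusted p = 1.21e-05, edgeR), on 58 to 99 counts with vehicle and 180 to 279 with PTH. Tbx2 on chromosome 11 (85832551 to 85841948, plus strand) measured 9.21, 10.2, 10.04 and 13.6 CPM with vehicle and 5.23, 4.54, 5.01 and 5.06 with PTH. It fell by 1.11 on the log2 scale (SE 0.137, adjusted p = 3.71e-05, edgeR), and no PTH sample reached the lowest vehicle sample. Each has a limb gene as its neighbour, and those stayed under 1 CPM: Tbx4, beside Tbx2, had a log2FC of -0.42 (adjusted p = 0.525) and Tbx5, beside Tbx3, one of 1.18 (adjusted p = 0.314). The abundant Tbx15 was near the threshold, at 116 ± 6.001 CPM with vehicle and 104 ± 4.96 with PTH (log2FC -0.16, adjusted p = 0.0547 by edgeR and 0.0353 by DESeq2). Tbx18, a gene of somites and coronal suture mesenchyme, was at 16.3 ± 0.854 and 16.0 ± 0.294 CPM (adjusted p = 0.823).

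Prrx1 fell and Prrx2 was not called. Prrx1 on chromosome 1 (163245119 to 163313710, minus strand) measured 946, 1004, 1017 and 916 CPM with vehicle and 799, 738, 769 and 764 with PTH. The groups did not overlap, and the mean changed from 971 ± 47.8 to 768 ± 25.1 CPM (log2FC -0.34, SE 0.0690, adjusted p = 0.00166, edgeR). Prrx2 measured 139, 139, 138 and 126 CPM with vehicle and 133, 137, 140 and 137 with PTH, a log2FC of 0.02 (SE 0.0594, adjusted p = 0.836). In the Alx family, Alx4 rose from 103 ± 5.89 to 138 ± 17.3 CPM (log2FC 0.42, adjusted p = 0.00208). Alx1 was not called, at 29.3 ± 2.73 and 25.1 ± 2.79 CPM (log2FC -0.22, adjusted p = 0.0809).

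The Meis and Pbx genes, whose proteins pair with each other and with Hox proteins, each had members that rose and members that fell. Meis2 rose from 40.9 ± 1.41 to 51.8 ± 1.87 CPM (log2FC 0.34, adjusted p = 6.47e-04). Meis1, a partner of posterior Hox proteins in blood cells and limb, fell from 20.8 ± 1.63 to 13.8 ± 0.813 CPM (log2FC -0.59, adjusted p = 1.51e-04), and 18.3% of its exon bases also belong to other annotated genes. Meis3 was at 23.9 ± 2.15 and 23.0 ± 3.09 CPM (log2FC -0.06, adjusted p = 0.694). Of the Pbx genes, Pbx2 fell from 34.6 ± 1.21 to 21.7 ± 1.63 CPM (log2FC -0.67, adjusted p = 1.55e-05). The assembly placed Pbx2 in a locus with Gpsm3, which was at 4.19 ± 0.369 and 4.53 ± 0.330 CPM (log2FC 0.11, adjusted p = 0.547). Pbx3 rose from 20.1 ± 1.60 to 24.9 ± 0.379 CPM (log2FC 0.31, adjusted p = 0.00554). Summed over the family, Meis genes measured 85.5 CPM with vehicle and 88.6 with PTH.

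**Figure D4:**
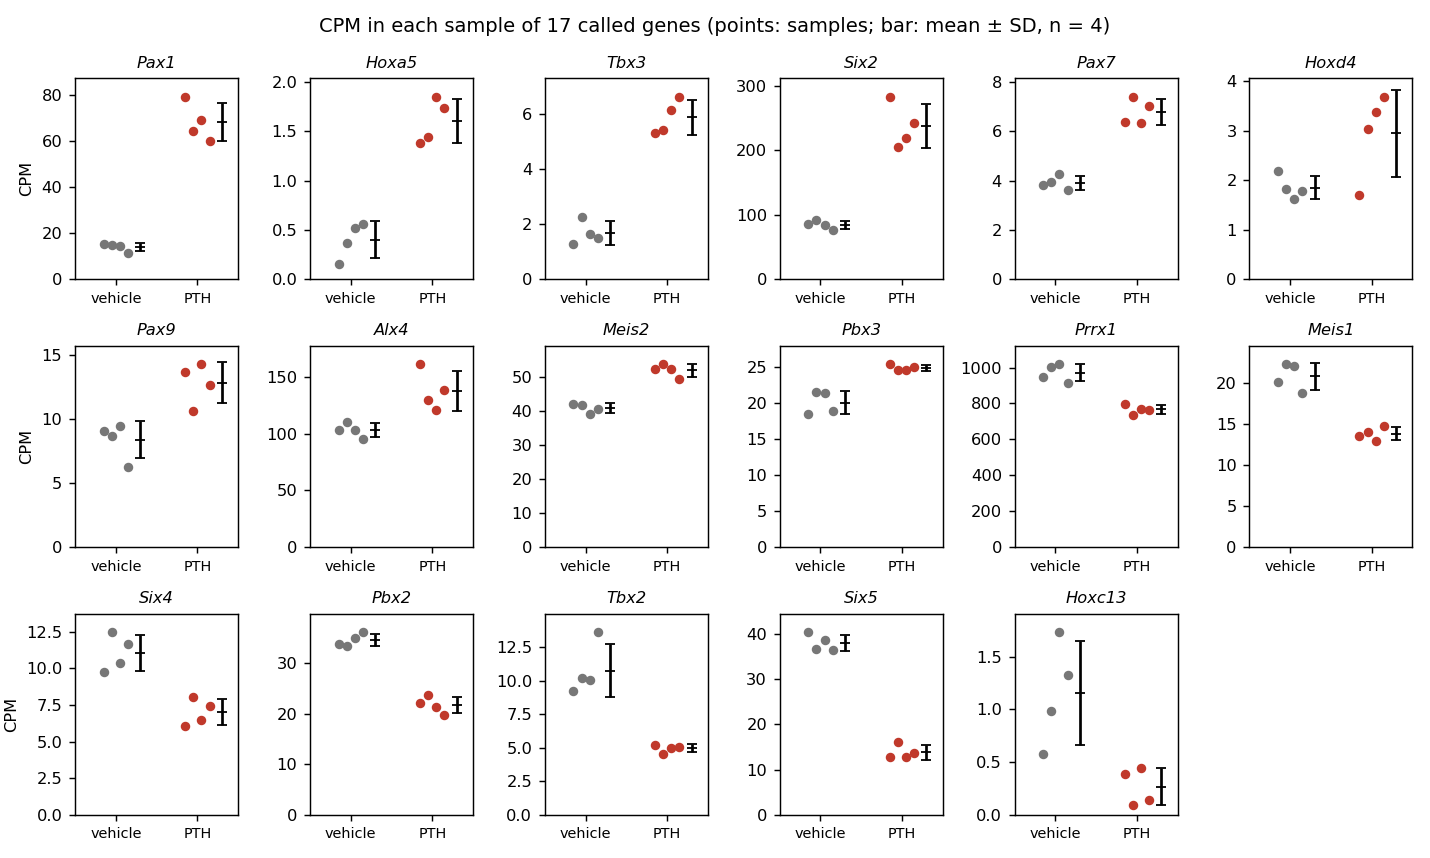
CPM in each of the 8 samples for 17 of the 18 called genes, ordered from the highest to the lowest log2FC, with the mean and SD of 4 samples as a bar beside the points and each axis starting at 0. The groups are apart in 16 panels, and in the Hoxd4 panel PTH replicate 1 lies among the vehicle samples.

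Of the 17 Hox genes tested, 3 were called, at low levels. Hoxa5, which patterns the cervical and thoracic skeleton, on chromosome 6 (52201754 to 52204587, minus strand), had 7, 16, 25 and 28 counts with vehicle and 71, 48, 71 and 73 with PTH. That is 0.402 ± 0.185 and 1.60 ± 0.226 CPM (log2FC 1.98, SE 0.379, adjusted p = 0.00109, edgeR), with every PTH sample above every vehicle sample. Hoxc13, a hair and nail factor on chromosome 15 (102921103 to 102928814, plus strand), had 26, 43, 83 and 66 counts with vehicle and 20, 3, 17 and 6 with PTH. It fell by 2.08 on the log2 scale (SE 0.516, adjusted p = 0.00573, edgeR) and was the only called gene of HoxC, while Hoxc9 to Hoxc12 beside it were silent. With 3 and 6 counts in PTH samples, Hoxc13 passed the filter only through the vehicle samples, where it was higher. Hoxa5, with 7 counts in vehicle replicate 1, passed it only through the PTH samples, where it was higher. Hoxd4 had 1.85 ± 0.238 CPM with vehicle and 2.95 ± 0.874 with PTH (log2FC 0.67, SE 0.251, adjusted p = 0.0468), with overlapping groups (exact permutation test, p = 0.114). In the fits that each omitted 1 sample, its adjusted p was 0.00468 without PTH replicate 1 and between 0.0504 and 0.139 without any other. Its assembled locus also holds Hoxd3 and Gm28230. Gm28230, with 95.8% of its exon bases shared with Hoxd3 and Hoxd4, was at 4.36 ± 0.506 CPM with vehicle and 3.77 ± 2.52 with PTH. Its log2FC was -0.23 (adjusted p = 0.634, edgeR). Whether the change in Hoxd4 reflects how reads were divided within the locus was not tested.

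The Hox genes with the highest levels were not called. Hoxd8 measured 19.5, 22.7, 24.1 and 21.5 CPM with vehicle and 23.0, 24.2, 20.9 and 22.2 with PTH (log2FC 0.04, SE 0.0854, adjusted p = 0.735). Hoxd9 was at 5.61 ± 0.931 and 4.30 ± 0.348 CPM (log2FC -0.39, adjusted p = 0.0572), with overlapping groups. In the anterior genes the log2FC values were 0.26 for Hoxb2 (adjusted p = 0.261), 0.13 for Hoxb3 (0.482), -0.04 for Hoxb4 (0.900), 0.31 for Hoxa2 (0.1003), -0.46 for Hoxa3 (0.174) and 0.77 for Hoxd3 (0.166). Lhx8, a gene of the oral mesenchyme and the expressed member of its family, was at 4.06 ± 1.13 CPM with vehicle and 5.995 ± 1.31 with PTH (log2FC 0.56, adjusted p = 0.0563 by edgeR and 0.0420 by DESeq2). In 4 HoxB and HoxC genes of paralog numbers 4 to 8, picked after their values were seen, the CPM of every PTH sample was above that of every vehicle sample on few counts. In the other 5 of these 9 genes, Hoxb4, Hoxb6, Hoxb7, Hoxb8 and Hoxc6, the groups overlapped. Over all tested genes, PTH samples were above vehicle samples without overlap in 21.2%. Hoxc4, Hoxc8 and Hoxb5 had too few counts to be tested by edgeR and are not among the genes of that share. Hoxc4 had 0 to 2 counts with vehicle and 5 to 21 with PTH. Its mean CPM with PTH was 5.03 times a floor of 3 counts in the vehicle libraries. Hoxc8 had 0 to 3 and 10 to 21 counts, and its mean CPM with PTH was 5.16 times that floor. Counting error in the PTH samples does not enter these ratios. Hoxb5 had 0 to 5 and 6 to 11 counts. Hoxc5, which passed the filter, had 2 to 11 and 8 to 19 counts and was not called (adjusted p = 0.0691, edgeR). By DESeq2, which tested more genes, Hoxc4 and Hoxc8 were called (adjusted p = 0.00128 and 0.00155). These values rest on the same few counts by which the genes were picked, so they are no separate evidence.

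Promoters are shown for the 4 of 6 expressed members with a called log2FC beyond 1 in size that had a window in the RefSeq table, so that their changes can be set beside the letters of the cyclic AMP response element. The other members of the 6 were Tbx2 and Tbx3. Each is the 250 bases before the RefSeq start in GRCm38.p6, 5′ to 3′ on the strand of the gene, with TGACG or its reverse complement CGTCA in capitals. The windows are chr17:85688255-85688504 (minus strand) for Six2, chr2:147364744-147364993 (plus strand) for Pax1, chr7:19094294-19094543 (plus strand) for Six5 and chr6:52204588-52204837 (minus strand) for Hoxa5.
Six2: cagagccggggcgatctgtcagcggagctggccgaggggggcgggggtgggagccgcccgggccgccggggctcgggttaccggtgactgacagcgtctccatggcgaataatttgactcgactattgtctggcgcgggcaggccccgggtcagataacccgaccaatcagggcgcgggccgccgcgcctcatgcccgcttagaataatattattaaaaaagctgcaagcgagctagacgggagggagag
Pax1: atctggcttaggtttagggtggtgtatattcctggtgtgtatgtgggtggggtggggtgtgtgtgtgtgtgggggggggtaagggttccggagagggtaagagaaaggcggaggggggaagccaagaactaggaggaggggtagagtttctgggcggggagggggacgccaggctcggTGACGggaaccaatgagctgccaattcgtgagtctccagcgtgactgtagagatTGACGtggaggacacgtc
Six5: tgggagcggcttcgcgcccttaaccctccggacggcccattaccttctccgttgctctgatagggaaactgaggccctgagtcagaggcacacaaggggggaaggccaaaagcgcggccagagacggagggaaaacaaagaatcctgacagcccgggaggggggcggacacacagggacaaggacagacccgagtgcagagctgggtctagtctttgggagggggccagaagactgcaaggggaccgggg
Hoxa5: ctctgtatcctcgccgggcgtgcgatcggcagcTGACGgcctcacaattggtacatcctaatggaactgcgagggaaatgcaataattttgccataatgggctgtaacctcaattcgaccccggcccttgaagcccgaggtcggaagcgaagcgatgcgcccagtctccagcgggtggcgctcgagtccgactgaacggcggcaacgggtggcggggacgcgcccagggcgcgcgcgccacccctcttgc

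Pax1, which rose, had TGACG at 72 and at 18 bases before this start, which lies 3069 bases from the gene start in GENCODE. Hoxa5, which rose, had TGACG at 217 bases before its start. The windows of Six2, which rose, and of Six5, which fell, had neither form, and no window of these 4 held the full palindrome. Six2 and Hoxa5 had 26 and 28 CpG dinucleotides in 250 bases, Six5 had 13 and Pax1 had 10. Of the 87 members, 57 had at least 1 window in the RefSeq table, 70 windows in all. TGACG or CGTCA, which the full palindrome contains, was present in 25.7% of the member windows and in 17.8% of all 32851 windows, and the full palindrome in 1 member window and in 1.55% of all. Member windows had a median of 13 CpG dinucleotides and a GC content of 59.4%, and all windows a median of 6 and 52.4%. A match of letters is a description of the window and not a binding site.

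Genes linked to these factors were counted from hand-written lists. Of 18 genes listed as partners of sine oculis, LIM-homeodomain, Pbx and Meis proteins, 16 were tested, 4 rose and 2 fell, with a median log2FC of 0.04. Whether each of them binds these proteins was not tested. Eya2, a co-activator of sine oculis proteins, had the largest rise, from 27.9 ± 1.25 to 70.6 ± 10.2 CPM (log2FC 1.34, adjusted p = 2.76e-07). Tgif2, a TALE-class repressor, had the largest fall, from 8.94 ± 0.996 to 3.46 ± 0.693 CPM (log2FC -1.37, adjusted p = 2.51e-05). Zfp703, a zinc-finger corepressor, had the highest level among the called genes and rose from 108 ± 4.62 to 207 ± 15.2 CPM (adjusted p = 3.73e-07). In the other craniofacial and limb patterning factors, 18 of 50 tested genes rose and 18 fell, a median of -0.07. Barx2, a homeobox gene of muscle and cartilage, had the largest fitted rise, from 0 to 3 counts with vehicle to 10 to 18 with PTH (adjusted p = 0.00131, edgeR). Its mean CPM with PTH was 5.13 times a floor of 3 counts in the vehicle libraries, without counting error in the PTH samples. With so few vehicle counts Barx2 passed the filter only through the PTH samples, and it was picked for its rise. Dlx3, a homeobox gene of osteoblast and tooth differentiation, fell from 26.3 ± 10.04 to 2.52 ± 0.419 CPM (adjusted p = 3.48e-07). Zic1, a neural crest zinc-finger gene, was the most abundant called gene of that list and rose from 195 ± 16.2 to 275 ± 6.88 CPM (adjusted p = 1.35e-04).

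Polycomb and Trithorax proteins keep homeobox genes off or on. All 37 listed genes were expressed and tested, 10 rose and 11 fell, with a median log2FC of -0.01. Aebp2, a cofactor of the repressive complex PRC2, rose from 62.5 ± 1.48 to 228 ± 5.81 CPM (log2FC 1.87, adjusted p = 1.54e-10). Cbx2, which binds the mark that PRC2 writes, fell from 7.44 ± 0.426 to 2.98 ± 0.402 CPM (log2FC -1.32, adjusted p = 9.65e-06), and its abundant relative Cbx6 fell from 286 ± 22.2 to 203 ± 4.01 CPM (adjusted p = 1.04e-04). Retinoic acid, hedgehog and FGF are signals that set patterning genes, and 5 of 14 tested genes of that list rose and 3 fell, with a median of -0.03. Aldh1a3, which makes retinoic acid, rose from 1.70 ± 0.370 to 45.01 ± 4.54 CPM (log2FC 4.72, adjusted p = 1.30e-10). The retinoic acid receptor gene Rarg fell from 116 ± 3.10 to 58.0 ± 6.15 CPM (adjusted p = 5.76e-07), and Smo, the hedgehog signal transducer, fell from 184 ± 3.30 to 140 ± 11.7 CPM (adjusted p = 5.99e-04). The share of tested genes that was called was 37.5% in the partner list, 36 of 50 in the craniofacial and limb list, 56.8% in the Polycomb and Trithorax list and 57.1% in the list of positional signals. Over all tested genes it was 45.8%, with 23.3% rising and 22.5% falling.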

How the data were processed

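The authors aligned paired reads of poly(A)-enriched libraries to GRCm38 (mm10) using HISAT2, used StringTie2 for the assembly of transcripts, and deposited a table of whole-number counts per gene, made by StringTie2's companion script from transcript coverage and not normalized. The annotation version, strand setting and read-length option of that script were not given in the sources used here. Groups came from the sample labels, and all 8 samples were used. Symbols were matched to GENCODE M21 (all 87 members) for positions and transcript lengths, and promoters came from RefSeq (GRCm38.p6).

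PTH was compared with vehicle in edgeR 4.0.16 (R 4.3.3) with TMM normalization, filterByExpr (minimum count 10, minimum total 15) and the two-sided quasi-likelihood test, adjusted over 16736 genes, at an adjusted p under 0.05 with no minimum fold change, the threshold of the study. The authors used DESeq2, and DESeq2 1.42.0 was an alternative. CPM used TMM-scaled library sizes, and SE is the log2 fold change over the square root of F. Exact permutation tests (SciPy 1.17.1) used log2(CPM + 0.1). The main edgeR fit and DESeq2 were first tested on simulated counts with a single dispersion, where 200 of 16736 genes were changed. EdgeR recovered 189 of them with 12 false calls, and DESeq2 186 with 25. In the data 45.8% of genes were called, so these rates describe the simulation and not the data. The other fits were not simulated. Alternatives were DESeq2, its size factors, no filter, halved counts (read length), counts summed by symbol, the sample number as a block, each sample left out, and a minimum log2 fold change of 1. 4 members are counted but not reported by name or drawn here. Text names every other expressed member, called low members, the most counted trace member of a family, silent members, and from each list the called genes with the largest rise, largest fall and highest level. Members and lists were chosen with earlier results of these data known.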

Additional observations from a re-analysis of the deposited data

Results flagged for a closer look

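In 74 groups of 4 samples, from 37 named members, 6 had a sample far from the other 3 by Dixon's criterion, and chance gives about 1 in 20 groups. Prrx2 in vehicle replicate 4 was at 126 CPM (others 138 to 139). Meis3 in PTH replicate 2 was at 27.6 CPM (others 21.2 to 21.98). Hoxb4 in vehicle replicate 3 was at 3.44 CPM (others 2.28 to 2.46). Vehicle replicate 2 stood apart for 3 genes: Hoxb3 at 7.69 CPM (others 6.74 to 6.82), Hoxa10 at 0.620 CPM (others 0.167 to 0.201) and Lhx9 at 0.505 CPM (others 0.167 to 0.223).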

How the results depend on the processing

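Of the 17 called members named, 16 were under 0.05 in all 14 alternatives without a minimum change, and the exception was Hoxd4, under 0.05 in 5 of 14. When a log2 fold change of 1 or more was required, 4 members rose and 3 fell, and 1882 genes were called in all. With each sample left out, 10 to 13 members rose, 7 to 9 fell, and 6671 to 8074 genes were called in all. DESeq2 gave 13 and 8, adding Hoxc4, Hoxc8, Lhx8 and Tbx15, and no filter on low counts gave 11 and 9. Without PTH replicate 1, Alx1, Hoxa3, Hoxd3 and Lhx8 were also called (edgeR, adjusted p = 0.0423, 0.0433, 0.0273 and 0.0158), as were Lhx8 without vehicle replicate 1 (0.0204), Hoxd9 without vehicle replicate 3 (0.0326) and Tbx15 without PTH replicate 2 (0.0334) or vehicle replicate 4 (0.0345). A floor of 10 counts made 30 members silent in place of 19, and 0 counts made 13. The number expressed lay between 26, for 1 CPM per kb, and 39, for 0.5 CPM. Among uncalled genes the sign of the log2 fold change turned for Prrx2 without the filter (-0.018), and for Prrx2, Hoxd8 and Hoxb4 with samples left out, where the ranges were -0.021 to 0.027, -0.019 to 0.085 and -0.14 to 0.11, and the cause was not tested. Of 120 list counts recomputed, 7 moved by over 1.5 times, all with the minimum fold change. Samples of the same number correlated at -0.041 to 0.027 across genes after the group means were removed, and none correlated best with its own number. With the replicate block 10 members rose and 7 fell, and Hoxd4 had an adjusted p of 0.106. Depth limits the silent and trace classes, where a gene under the floor could not be told from an absent one.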
